A study of Arabidopsis thaliana with 2 samples.

Results

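Molybdenum cofactor is a pterin that holds molybdenum in the active site of a small set of enzymes. In plants its synthesis starts from GTP. CNX2, a relative of bacterial MoaA, acts in the first step, and a MoaE-type protein forms the large subunit of molybdopterin synthase, which adds the sulfur atoms that bind the metal. Nitrate reductase, which turns nitrate into nitrite in the first step of nitrate assimilation, needs the finished cofactor together with haem and flavin, and NIA2 encodes the isoform that gives most of the leaf activity in Arabidopsis.

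RNA of Arabidopsis thaliana was compared between a lefko mutant and wild type, 1 labelled sample of each, both in the Col-0 ecotype. The mutant is lefko1 in the protocol and in the tables but lefko2 in the sample title, and no label gives its gene, allele or the age of the plants. The seedlings grew vertically on Murashige and Skoog medium with sucrose under long days, and the protocol names cotyledons, the seed leaves, while the source label names seeds. The deposited tables hold only splicing events that differed between the genotypes, so the tissue could not be checked against marker genes.

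Described here are all listed events of CNX2 (AT2G31955), of AT2G43760, which RefSeq describes as a molybdopterin biosynthesis MoaE family protein, and of NIA2 (AT1G37130). They were found by matching the gene identifiers of the 5 event tables to RefSeq. Each of the 3 genes had 1 event, 3 of 343 listed events and 3 of 281 listed genes. The genes were chosen by their listed splicing changes between these same samples, so their differences are given as a description, with no test. Every event has inclusion reads, which contain a stretch of RNA, and skipping reads, which join across it. Each genotype has 3 sets of these counts, called count sets here. Nothing says whether the sets are separate plants, libraries or runs, so an SD is the spread between these sets only. The SE of a difference is computed from these SDs and has the same limit. The inclusion share is inclusion reads as a percentage of inclusion plus skipping reads. Over all listed events a wild-type set held 168946 to 187225 reads and a mutant set 166819 to 178604.

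The splice sites of the CNX2 and AT2G43760 events are shown because the events turn on their use. In CNX2 they are the ends of the intron that is kept or removed, and in AT2G43760 they are alternative 5' splice sites. Each line gives the last 15 exon bases and the first 15 intron bases at a 5' splice site, or the last 15 intron bases and the first 15 exon bases at a 3' splice site, and the capitals mark the GT that opens or the AG that closes the intron (RefSeq, TAIR10.1, 5' to 3' on the strand of the gene).
CNX2 5' splice site, chr2:13586574-13586603, minus strand: ctccgtttaccaaagGTcatctcttttctt
CNX2 3' splice site, chr2:13586507-13586536, minus strand: ctcctcctttctcAGaaattctctttcgat
AT2G43760 upstream 5' splice site, chr2:18132679-18132708, plus strand: accaaactctcaaagGTcagataaaatctt
AT2G43760 middle 5' splice site, chr2:18132774-18132803, plus strand: ttttagtgtagtaagGTactgaaagagacg
AT2G43760 downstream 5' splice site, chr2:18133067-18133096, plus strand: gattgcgcaagaaagGTtcctcatttgctc

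In NIA2 the skipped stretch lies inside an exon, and the same 9 bases stand at its left and right edges. The next pair of lines shows these edges, with the shared bases in capitals. The stretch as the table places it starts after the first capital of the left edge and ends with the first capital of the right edge.
NIA2 left edge, chr1:14161396-14161425, plus strand: gggaggaactggatGGTTGGGCAgagcaat
NIA2 right edge, chr1:14161459-14161488, plus strand: aatcagctaaggaaGGTTGGGCAtacagta

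The cofactor synthesis genes CNX2 and AT2G43760 went one way and the nitrate reductase gene NIA2 the other. In the mutant the share of the longer RNA was lower in CNX2 and in AT2G43760 and higher in NIA2. Lower inclusion is the less common direction in these tables, at 22.2% of the 343 listed events and 13.5% of the 245 with at least 20 reads in each set. The sets of mutant and wild type did not overlap in any of the 3 genes, but this was so in 91.8% of the listed events. Since the tables were filtered on this contrast and the genes were picked from them, nothing is read from these counts.

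**Figure D1:**
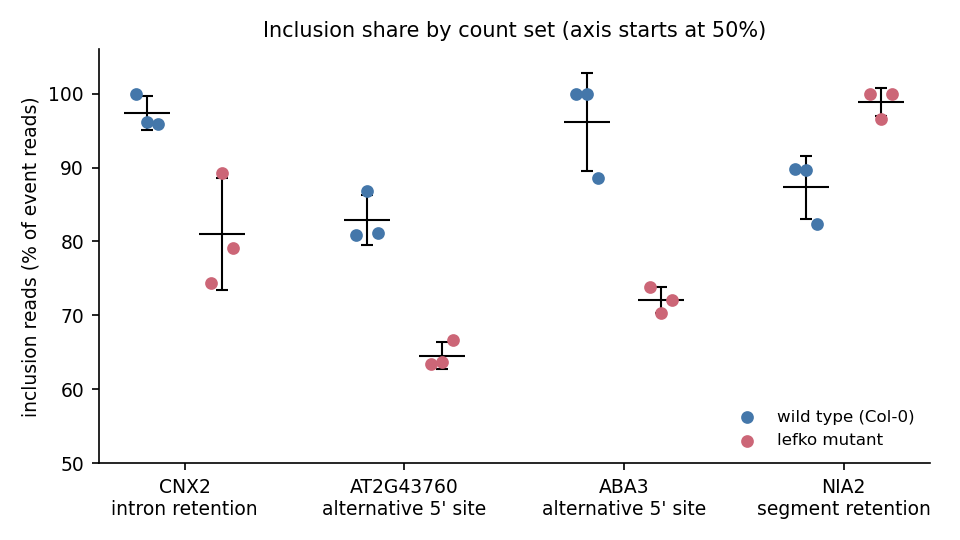
Inclusion share in percent (vertical axis, from 50%) of the listed events of CNX2, AT2G43760, NIA2 and the cofactor sulfurase gene ABA3. Points are the 3 count sets of wild type (blue) and of the mutant (red), and lines are the mean and SD over sets. The mutant sets lie below all wild-type sets in CNX2, AT2G43760 and ABA3 and above them in NIA2.

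CNX2 acts at the entry of the pathway, and its event is the retention of an intron of 67 nt (chr2:13586522-13586588, minus strand, TAIR10.1). The intron lies in the 5' UTR, between the first exon and the exon with the start codon. In wild type the sets held 26, 25 and 23 inclusion reads and 0, 1 and 1 skipping reads. In the mutant they held 32, 25 and 19 inclusion reads and 11, 3 and 5 skipping reads. Spliced reads were thus nearly missing in wild type and present in every mutant set, while the summed inclusion reads hardly moved, at 74 and 76.

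Mean retention of the CNX2 intron was 97.3% ± 2.32 (SD, 3 sets) in wild type against 81.0% ± 7.59 in the mutant. Mutant minus wild type came to -16.4 points (SE 4.58), and to -26.4 points with inclusion reads divided by 2, since the rule by which inclusion reads were counted is unknown. The 3 wild-type sets ran from 95.8% to 100% and the mutant sets from 74.4% to 89.3%. Over summed reads the exact 95% intervals (Clopper-Pearson, counting error only) were 90.8% to 99.7% and 70.5% to 87.5%. The spliced form rests on 2 wild-type and 19 mutant reads, and the mutant's first set supplied 11 of these 19. A wild-type set with 0 of 26 skipping reads still allows a spliced share of up to 11.5% (a floor of 3 reads, counting error only). The FDR in the authors' deposited table was 0.00124.

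RefSeq has 6 transcripts of CNX2. The intron is kept in 3 of them and removed, as in the event, in 1. The other 2 remove a longer intron of 93 nt, from the same 5' splice site to a 3' splice site 26 nt further on. The tables do not say where reads of that junction were counted. None of the leaders, the stretch before the start codon, has an upstream ATG. The leader is 219 nt with the intron, 152 nt without it and 126 nt without the longer intron in transcripts that begin at the annotated start of the gene, so the counted stretch lies wholly ahead of the coding sequence.

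The CNX2 intron is short and rich in pyrimidines. Its 67 nt compare with a median of 157 nt over the 214 listed retention events, and 8 of these introns were this short or shorter. C and T make up 83.6% of it, the highest value among the 214 listed introns, whose median was 56.5%. The bases at its 5' splice site scored at percentile 23.2 of 131013 annotated introns of protein-coding genes, and those at its 3' splice site at percentile 36.4. The score adds up, over 3 exon and 6 intron bases (5' site) or 15 intron bases and 1 exon base (3' site), how much commoner each base is at annotated sites than in the genome.

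Retention was lower in the mutant in 16.8% of the listed retention events, and in 31.2% of those in 5' UTR introns, 15 of 48. Where every set held 20 reads or more it was lower in 17 of 160 (10.6%), and in 8 of 29 (27.6%) in 5' UTR introns. Within coding sequence it was lower in 7 of 141. CNX2 ranked as the eighth largest fall among those 15 introns. The events of its class most like CNX2 in mean retention of wild type and mutant, among 159 others with at least 20 reads in each set, were those of the disease resistance gene RPS6 (AT5G46470, 96.4% ± 1.61 and 83.6% ± 2.56) and of the PLAT domain gene AT1G55280 (100% and 86.3% ± 3.23). The third was in AT4G19500, a gene for a nucleotide-binding protein, at 98.4% ± 0.430 and 90.2% ± 2.93. Their distances from CNX2 over these 2 means were 2.81, 5.93 and 9.36 points.

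**Figure D2:**
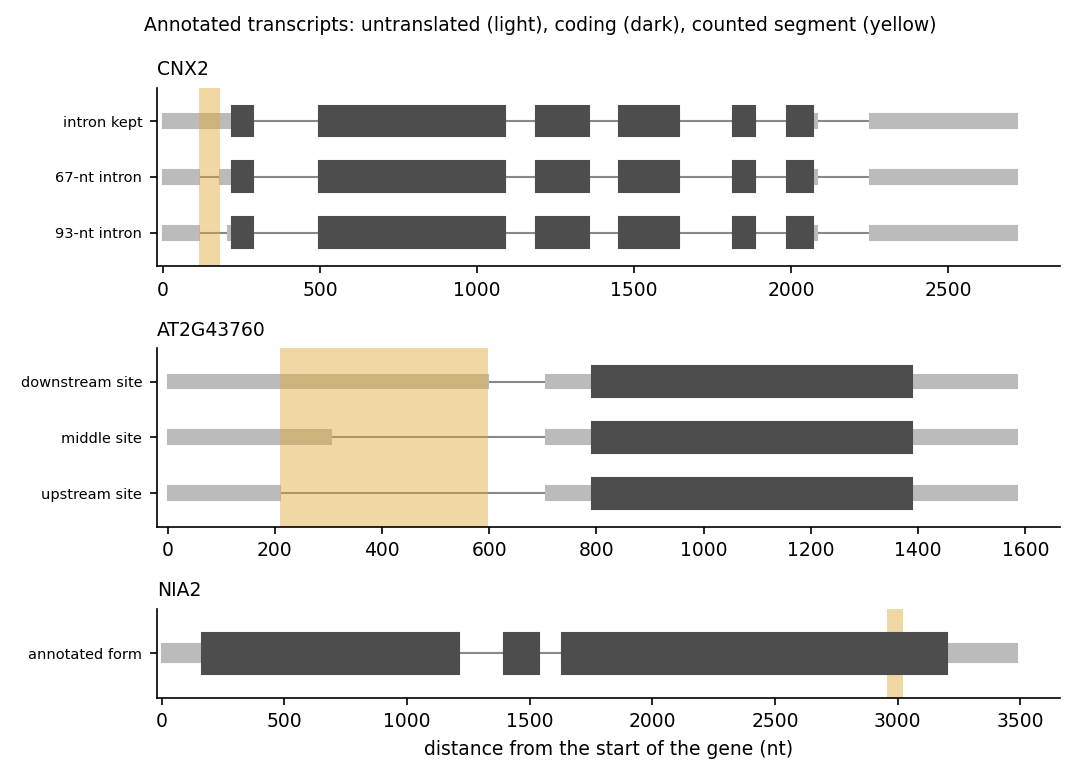
Annotated transcripts of CNX2, AT2G43760 and NIA2 by distance in nt from the start of the gene. Light boxes are untranslated and dark boxes coding exon sequence, lines are introns and yellow marks the stretch the event counts. The stretch lies before the coding sequence in CNX2 (67 nt) and AT2G43760 (388 nt) and inside the last coding exon in NIA2 (63 nt).

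AT2G43760 supplies the MoaE-type subunit, and its event is a choice between 5' splice sites of the only intron, again in the 5' UTR. Inclusion reads belong to the longer first exon, which ends at the downstream site, and skipping reads to the shorter exon, which ends at the upstream site. The sites are 388 nt apart (extra stretch chr2:18132694-18133081, plus strand). In wild type the sets held 140, 145 and 120 inclusion reads and 33, 22 and 28 skipping reads. In the mutant they held 121, 98 and 126 inclusion reads and 70, 56 and 63 skipping reads. Every mutant set had more reads of the upstream site than every wild-type set.

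The longer form made up 82.9% ± 3.36 of wild-type reads against 64.6% ± 1.84 of mutant reads. Mutant minus wild type came to -18.4 points (SE 2.21). The wild-type sets ran from 80.9% to 86.8% and the mutant sets from 63.4% to 66.7%. Summed reads went from 405 to 345 for the longer form and from 83 to 189 for the shorter one, a ratio of 2.28. The exact 95% intervals over summed reads were 79.4% to 86.2% and 60.4% to 68.7%. The FDR in the authors' deposited table was 0.0035. Each set had at least 148 reads. In set order the shares were 80.9%, 86.8% and 81.1% in wild type and 63.4%, 63.6% and 66.7% in the mutant.

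RefSeq gives each of 3 transcripts of AT2G43760 its own 5' splice site. The middle site, 95 nt beyond the upstream one, has no listed event. Reads of that form hold the first 95 nt of the extra stretch, so they cannot be told apart from the longer form where reads within the exon were counted as inclusion. The coding sequence of 597 nt starts in the second exon and is the same in all 3. The leader is 297 nt with the upstream, 392 nt with the middle and 685 nt with the downstream site. It holds 3 upstream ATGs in the shortest form and 5 in the longest, and each opens a reading frame that stops before the start codon. The longest of these frames has 16 codons with the upstream site and 41 codons with the downstream site.

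Of the 3 sites, the upstream one had the highest score. It stood at percentile 55.7 of annotated introns, the middle site at 44.4 and the downstream site at 29.98. All 3 share a single 3' splice site, at percentile 80.4. The antisense gene OASB, which encodes an O-acetylserine lyase, overlaps the first 155 nt of AT2G43760. It does not reach the extra stretch, and no label says whether the reads kept their strand.

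The longer form was lower in the mutant in 30.2% of the 43 listed 5' splice site events, and in 44.4% of the 9 whose skipping junction is an annotated 5' UTR intron. Among the 25 events of this class with at least 20 reads in each set, AT2G43760 included, it was lower in 3 (12%). No other event of the class with at least 20 reads in each set came close to AT2G43760 on both means. Of 24 others with at least 20 reads in each set, the nearest were those of the U1 snRNP gene U1-70K (69.0% ± 1.60 and 83.8% ± 1.44) and of the transporter gene AT1G54730 (79.0% ± 4.41 and 89.1% ± 1.92), at distances of 23.8 and 24.9 points and with the opposite direction. The third, the DnaJ domain gene AT5G53150, was lower in the mutant as AT2G43760 was, at 70.7% ± 10.1 and 41.8% ± 0.959, and its junction is also in the 5' UTR. Some events with a thinner set were nearer and lower in the mutant as well. Among them were those of AT5G27970 (90.1% and 58.1%, lowest set 12 reads) and of the cofactor sulfurase gene ABA3 (96.2% and 72.1%, lowest set 13 reads).

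**Figure D3:**
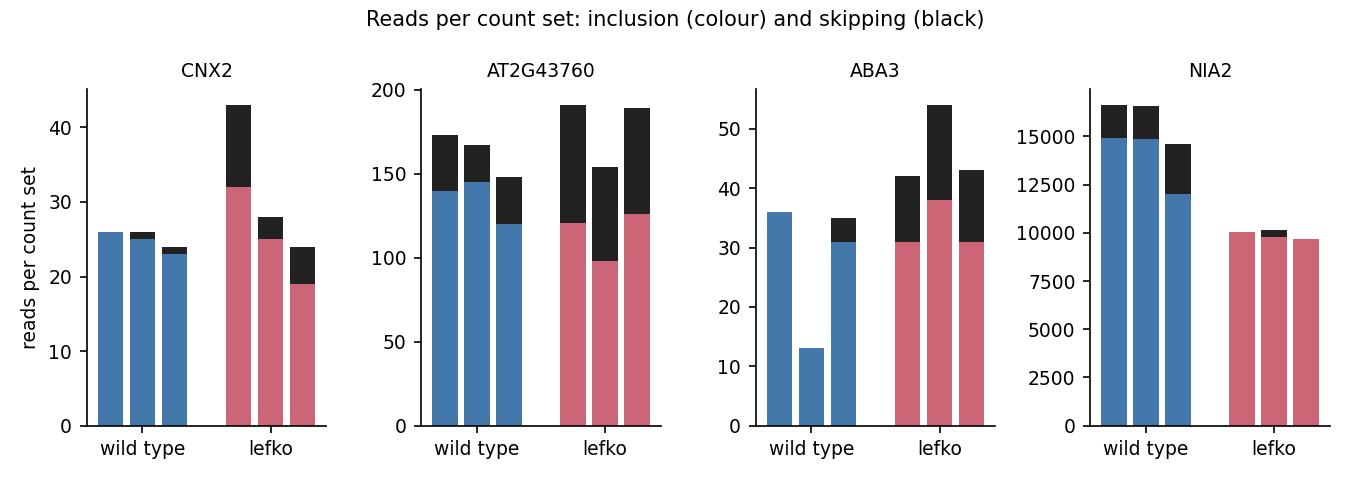
Reads per count set (vertical axis, from 0, its own scale in each panel) in the 3 sets of wild type and of the mutant. Colour is inclusion reads and black is skipping reads. Skipping reads were more in the mutant in CNX2, AT2G43760 and ABA3, and in NIA2 they were 0 in 2 of 3 mutant sets.

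NIA2 uses the cofactor, and its event differs from the others in kind. The table lists retention of a stretch of 63 nt (chr1:14161411-14161473, plus strand) inside exon 3 of 3. RefSeq has 1 transcript of NIA2, in which this stretch is coding exon sequence, and no annotated transcript of any gene has the skipping junction. In wild type the sets held 14944, 14873 and 12019 inclusion reads and 1686, 1714 and 2566 skipping reads. In the mutant they held 10032, 9799 and 9673 inclusion reads and 0, 342 and 0 skipping reads. The junction was read in every wild-type set and in 1 mutant set only.

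Mean inclusion in NIA2 was 87.3% ± 4.25 in wild type against 98.9% ± 1.95 in the mutant, so mutant minus wild type came to 11.6 points (SE 2.70). The counting rule is unknown, and with inclusion reads divided by 2, as where an included stretch is read at both of its ends, the difference was 20.2 points. In the wild-type sets 10.1%, 10.3% and 17.6% of reads were skipping reads, and in the mutant's second set 3.37%. A count of 0 in the other mutant sets allows up to 0.0299% and 0.0310% (a floor of 3 reads, counting error only). Sets of 1 genotype differed by more than counting error: the exact 95% interval was 9.68% to 10.6% in the first and 17.0% to 18.2% in the third wild-type set, and 3.03% to 3.74% in the second mutant set. The FDR is 0 as written in the authors' deposited table, the lowest among retention events.

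NIA2 had the second most reads of all listed events in wild type. Of the reads over listed events it took 8.999% in wild type against 5.72% in the mutant. Its summed reads went from 47802 to 29846, a ratio of 0.624, while the median ratio over listed events was 1.39. At CNX2 the ratio was 1.25 and at AT2G43760 1.09. Fewer NIA2 RNA molecules per cell and fewer cells that express it cannot be told apart in such samples, and whole-library totals were not used here, so these ratios are relative to the listed events. Inclusion reads of NIA2 had a ratio of 0.705 and skipping reads one of 0.0573. The medians over listed events were 2.02 for inclusion reads and 0.883 for skipping reads, so the median of 1.39 is not a neutral background.

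Skipping of the NIA2 stretch keeps the reading frame. It takes out 21 codons' worth of sequence between codons 838 and 859 and leaves 896 of 917 amino acids, with no earlier stop codon. This is near the C-terminus, where plant nitrate reductases bind NADH. The nitrate reductase gene NIA1, the paralog, had no listed event. Over the coding sequence 73.3% of NIA2 bases were identical to NIA1, and within 50 nt of the stretch the longest identical run was 17 nt.

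The edges of the NIA2 stretch were unlike most annotated introns. It opens with GT and closes with AG, but its 5' site scored at percentile 8.63 and its 3' site at percentile 2.55 of annotated introns. The annotated second intron of NIA2 also has a low 3' score, at percentile 2.96, with a 5' site at percentile 50.2. The repeat of 9 bases at the edges means that the same spliced sequence can be aligned at 10 placements. Of annotated introns 0.272% have an end repeat of 9 nt or more, with a median of 2 nt. Among the 214 listed retention events 3 have one, in NIA2, GRP9 and ESB1, the next longest being 7 nt. All 3 stretches have a length that is a multiple of 3, as do 37.9% of the listed retention introns. All 3 had higher inclusion in the mutant, as had 175 of the 211 listed retention events with shorter repeats, so nothing is read from this direction. The part of the repeat in the NIA2 counts was not tested.

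**Figure D4:**
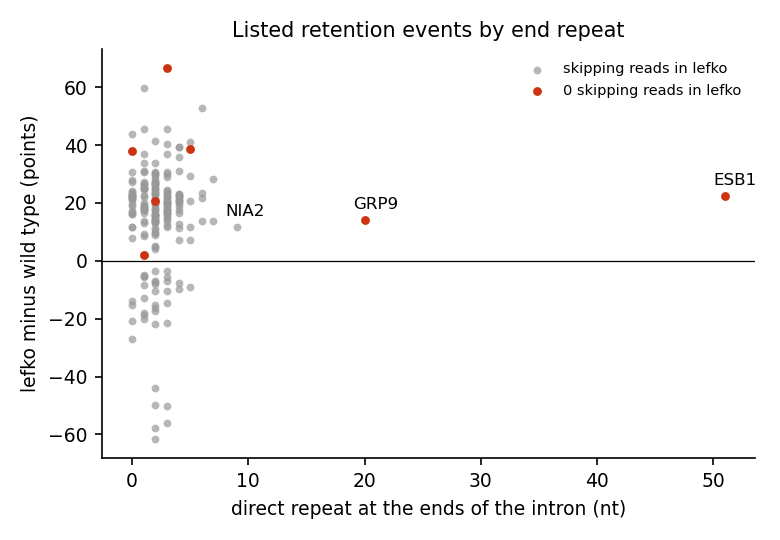
Change in inclusion share, mutant minus wild type in points (vertical axis), against the length in nt of the direct repeat at the ends of the intron (horizontal axis) for the 214 listed retention events. Red points have 0 skipping reads in all 3 mutant sets. NIA2 (9 nt), GRP9 (20 nt) and ESB1 (51 nt) lie to the right of all others and above 0.

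Of 11 listed retention events whose junction is in no annotated transcript, 3 were higher in the mutant (27.3%), NIA2 being one. The events most like NIA2 in their means were those of AT1G01240 (89.0% ± 7.18 and 98.6% ± 1.39), which RefSeq describes as uncharacterized, of the glycine-rich protein gene GRP9 (86.0% ± 7.61 and 100%) and of CHAL (85.0% ± 4.56 and 98.9% ± 1.86), at distances of 1.71, 1.73 and 2.28 points. The lowest set had 47 reads in AT1G01240, 190 in GRP9 and 20 in CHAL, against 9673 in NIA2.

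**Figure D5:**
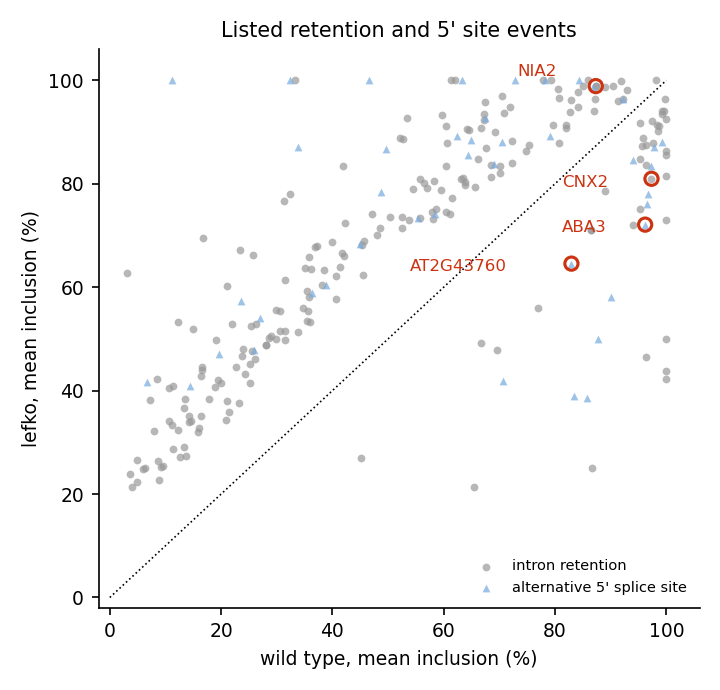
Mean inclusion share in percent in the mutant (vertical axis) against wild type (horizontal axis) for the listed retention (grey circles) and 5' splice site events (blue triangles). The dotted line marks equal shares. CNX2 (97.3% and 81.0%), AT2G43760 (82.9% and 64.6%) and ABA3 (96.2% and 72.1%) lie below it, and NIA2 (87.3% and 98.9%) above it.

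Further genes of the pathway were looked up in a list of 30 genes that holds the 3 members. Of 8 genes of cofactor synthesis and maturation, 3 had a listed event: CNX2, AT2G43760 and ABA3. Both members among them were taken from the listed genes, so this count was partly fixed in advance. Over the annotation, 0.998% of 27562 protein-coding genes had a listed event. The cofactor gene CNX1 (AT5G20990), which inserts molybdenum, CNX3, CNX5, CNX7 and the transporter gene ABCB25 had none. A listed 5' splice site event under the symbol CNX1 belongs to the calnexin gene AT5G61790. Of 9 genes of molybdenum enzymes only NIA2 had one, so none was listed for NIA1, sulfite oxidase, the xanthine dehydrogenases or the aldehyde oxidases. None of 2 genes of molybdate transport and none of 11 genes of nitrate uptake and assimilation was listed. The tables hold no gene without a passing event, so an unlisted gene may be unchanged or too thinly covered.

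ABA3 encodes the cofactor sulfurase, which activates xanthine dehydrogenase and aldehyde oxidase and is needed for the synthesis of abscisic acid. Its event, too, is a 5' splice site choice with a lower share of the longer exon in the mutant, but it lies in coding exon 4 of 20. The sites are 61 nt apart (chr1:5660707-5660767, plus strand), and they are shown here with the GT in capitals.
ABA3 upstream 5' splice site, chr1:5660692-5660721, plus strand: ggaccatctatcaagGTaaagcatcgtgct
ABA3 downstream 5' splice site, chr1:5660753-5660782, plus strand: aggaagagtcaagagGTctgttagcttgat

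In wild type the ABA3 sets held 36, 13 and 31 inclusion reads and 0, 0 and 4 skipping reads. In the mutant they held 31, 38 and 31 inclusion reads and 11, 16 and 12 skipping reads. The upstream site was used in every mutant set and in 1 wild-type set. The longer form went from 96.2% ± 6.60 to 72.1% ± 1.72, or by -24.1 points (SE 3.94), with exact 95% intervals over summed reads of 88.3% to 98.7% and 63.7% to 79.2%. One wild-type set had only 13 reads. The FDR in the authors' deposited table was 0.00073. The annotated downstream site is used by all 3 RefSeq transcripts and the upstream site by none. Of the 12 listed 5' splice site events whose skipping junction is in no annotated transcript, ABA3 included, 7 were lower in the mutant. Leaving out 61 nt shifts the reading frame and brings a stop at codon 191 of a sequence that encodes 842 amino acids in its longest form. As in AT2G43760, the upstream site scored higher than the downstream one, at percentile 65.7 against 54.6.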

How the data were processed

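The submitters' processing notes name HISAT2 2.0.4 and the build TAIR10 for the RNA-seq reads. The sources used here do not name the event caller, its counting rule or its test. The 5 tables of events, which the authors deposited, hold unnormalized inclusion and skipping read counts (3 per cell) and, per the file headers, a p-value and an FDR. Because each cell joins 3 counts, these columns were recorded with the unit other. The largest listed FDR is 0.0491.

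Table starts count from 0, so 1 was added: 7 of 9 exon entries of the member events then matched a RefSeq exon exactly, and 0 as written. Shares, means and SDs over count sets, exact 95% intervals and a floor of 3 reads for counts of 0 were computed. No test was made, since the genes were chosen on this contrast, and 3 sets against 3 could not go below p = 0.1 in an exact permutation test.

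The members and the pathway list were chosen with earlier results of these data known. Named genes were the members, listed genes of the pathway list and, per member event, the 3 events of its class nearest in mean share of wild type and mutant with at least 20 reads in each set. ESB1 was named after its values were seen. Alternatives are given in the closing section. Share and repeat calculations were tested on simulated data. Python 3.11.15, NumPy 2.4.6, SciPy 1.17.1, pandas 2.3.3, Biopython 1.88 and matplotlib 3.10.9 were used.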

Additional observations from a re-analysis of the deposited data

How the results depend on the processing

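Lower inclusion in CNX2, AT2G43760 and ABA3 and higher inclusion in NIA2 kept their direction under every alternative run: summed reads, inclusion reads divided by 2, log2 odds with 0.5 added and leaving out each count set. In none of these genes did the sets of the genotypes overlap. Summing reads, dividing inclusion reads by 2 or leaving out a set could therefore not reverse the direction. Leaving out 1 set gave -20.5 to -13.1 points in CNX2, -19.5 to -16.5 in AT2G43760, 9.11 to 12.8 in NIA2 and -27.9 to -22.2 in ABA3. With inclusion reads divided by 2 the differences became -26.4 points in CNX2, -23.3 in AT2G43760, 20.2 in NIA2 and -36.8 in ABA3. The number of member events stayed at 2 lower and 1 higher with summed reads and without each set. That, too, was fixed in advance, since the sets did not overlap. The listed events with lower inclusion, 76 of 343, were 47 of 233 (20.2%) at an FDR of at most 0.01 and 33 of 245 (13.5%) with at least 20 reads in each set. With a change of at least 10 points they were 59 of 305 (19.3%). Lower retention, in 36 of 214 events, became 21 of 142 (14.8%), 17 of 160 (10.6%) and 22 of 188 (11.7%) under these limits in the same order. For 5' UTR introns, 15 of 48 became 8 of 30 (26.7%), 8 of 29 (27.6%) and 9 of 39 (23.1%). For 5' splice sites, 13 of 43 became 7 of 30 (23.3%), 3 of 25 (12%) and 12 of 41 (29.3%). The shares of lower events were thus smaller as well as their counts, though only slightly for 5' splice sites with a change of at least 10 points. The cause was not tested. All 3 members passed each limit. The thinnest set held 24 reads in CNX2 and 13 in ABA3. The alternatives for ABA3 were added after seeing the data. No paired analysis was possible because the labels give 1 sample per genotype and no number that pairs count sets.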

Other observations

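The other listed retention events with an end repeat as long as that of NIA2 were a pair of short coding stretches on chromosome 2. ESB1, which encodes a dirigent-like protein of the Casparian strip, has a stretch of 33 nt with a repeat of 51 nt, so the repeat is longer than the stretch. Its wild-type sets held 72, 50 and 34 inclusion reads and 13, 17 and 12 skipping reads, and its mutant sets 83, 110 and 77 inclusion reads and no skipping read. GRP9 has a stretch of 21 nt with a repeat of 20 nt. Its wild-type sets held 288, 388 and 178 inclusion reads and 79, 64 and 12 skipping reads, and its mutant sets 527, 525 and 365 inclusion reads and no skipping read. The mutant counts of 0 allow a skipping share of up to 1.11% in ESB1 and 0.212% in GRP9, by counting error alone. Of the 211 listed retention events with shorter repeats, 5 had no skipping read in the mutant, and 175 were higher in the mutant. Whether the repeats bear on these counts was not tested.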
